A study of Mus musculus with 12 samples.

Results

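Binding of the transcription factor NKX2-1, mapped in 3 libraries, was compared with binding of PRDM3, mapped in 1 library, in epithelial cells of the fetal mouse lung. These 4 libraries are among 12 samples of the series, of which 9 have a peak list analysed here. They were taken by antibody from the labels, and their peaks on chromosomes 1 to 19 were used. All 4 came from wild type C57Bl6 lungs at E17.5, late in gestation, with no treatment. Cells had been selected with microbeads against EpCAM, a surface protein of epithelial cells, and 100000 cells went into each reaction. Lungs of several fetuses were pooled, and nothing in the labels says which libraries came from separate pools. Spread between libraries may therefore be technical. The method was CUT&RUN, in which an antibody tethers a nuclease to chromatin so that DNA next to the bound protein is cut out and sequenced.

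NKX2-1 is a homeodomain protein that lung epithelium needs to form and to keep its identity, and it acts on genes of both alveolar type 1 (AT1) cells, the flat gas exchange cells, and type 2 (AT2) cells, which make surfactant. PRDM3 is the protein of the Mecom locus (also called EVI1), a zinc finger protein of the PRDM family, and PRDM16 is its close relative. PRDM3 and PRDM16 are known as regulators of cell fate that act with chromatin-modifying partners, often as repressors.

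The deposited lists held 51586, 60419 and 76036 NKX2-1 peaks (replicates 1, 2 and 3) and 51128 PRDM3 peaks on these chromosomes. Every peak has a fold enrichment from the authors' peak caller. Fold enrichment has a different scale in each list, so each peak was given its percentile rank within its own library, from 0 to 100. A peak was linked to the protein-coding gene with the nearest annotated end within 50 kb of the summit, the peak's highest point. A gene's rank in a library is that of its best linked peak, and 0 where it has none. NKX2-1 replicates 2 and 3 stood apart from replicate 1 before any comparison with PRDM3. Peaks with a q-value under 0.05 made up 76.4%, 10.98% and 13.2% of the 3 NKX2-1 lists and 42.6% of the PRDM3 list. In replicates 2 and 3, 38.7% and 37.7% of peaks shared a single fold enrichment, so their ranks move in coarse steps. The peak names of PRDM3 and of NKX2-1 replicate 1 belong to one series of labels and those of NKX2-1 replicates 2 and 3 to another, so list medians are given with replicate 1 alone as well. All 6 epithelial marker genes (Epcam, Cdh1, Nkx2-1, Krt8, Krt18 and Cldn4) carried a peak of H3K4me3, a histone mark of promoters, at a gene end. Of the markers of other cells, 1 of 4 immune and blood genes (Spi1), 2 of 4 endothelial genes (Cdh5 and Kdr) and 2 of 4 mesenchymal genes (Col1a1 and Twist2) also carried it. Among all genes with a linked peak 64.7% carried it.

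The promoters below show the 3 kinds of gene described in the results: bound by both proteins, by NKX2-1 without PRDM3, and by PRDM3 without NKX2-1. Each is the 250 bases before an annotated start, from RefSeq on GRCm38.p6, written 5′ to 3′ along the gene. Capitals mark the letters searched for on both strands: CACTNNAG and CAAGTG, forms of the NKX2-1 site, and AGATAA and GATGAG, forms of the sites of the PRDM3 zinc fingers. The first pair can share letters, since both hold CACT on one strand, and the second pair only bases at their ends. A match is no more than these letters. Sertad2 and Fam187b were chosen because the summits of all 4 libraries lay inside the window. In Sertad2, a regulator of transcription, NKX2-1 summits lay 70, 68 and 133 bases before the start and the PRDM3 summit 122 bases before it. The best Sertad2 peaks of NKX2-1 replicate 1 and of PRDM3 lay elsewhere, 21335 and 21292 bases from a gene end. In Fam187b, NKX2-1 summits lay 136, 141 and 23 bases before the start and the PRDM3 summit 152 bases before it.
Sertad2 (chr11:20542916-20543165, plus strand): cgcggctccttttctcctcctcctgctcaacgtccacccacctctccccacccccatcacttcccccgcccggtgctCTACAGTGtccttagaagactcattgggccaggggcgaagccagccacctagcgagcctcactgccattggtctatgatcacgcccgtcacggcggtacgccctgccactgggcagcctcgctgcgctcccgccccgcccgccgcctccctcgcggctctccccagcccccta
Fam187b (chr7:30973544-30973793, plus strand): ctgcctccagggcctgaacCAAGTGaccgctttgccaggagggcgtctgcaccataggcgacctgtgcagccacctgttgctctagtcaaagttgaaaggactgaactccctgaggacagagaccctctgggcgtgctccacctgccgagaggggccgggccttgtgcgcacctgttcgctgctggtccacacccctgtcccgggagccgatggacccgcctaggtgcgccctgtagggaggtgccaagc

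Larp7, Lap3 and Phkg2 had NKX2-1 peaks of all 3 libraries over the window and no PRDM3 peak. Larp7 encodes a protein of the small nuclear ribonucleoprotein that restrains transcription elongation, Lap3 a leucine aminopeptidase, and Phkg2 a catalytic subunit of phosphorylase kinase. In Lap3 the NKX2-1 summits lay 4, 24 and 21 bases before the start, and in Phkg2 95, 100 and 72 bases before it. In Larp7 they lay 177, 186 and 238 bases after the start, and the peaks reached back over the window.
Larp7 (chr3:127553350-127553599, minus strand): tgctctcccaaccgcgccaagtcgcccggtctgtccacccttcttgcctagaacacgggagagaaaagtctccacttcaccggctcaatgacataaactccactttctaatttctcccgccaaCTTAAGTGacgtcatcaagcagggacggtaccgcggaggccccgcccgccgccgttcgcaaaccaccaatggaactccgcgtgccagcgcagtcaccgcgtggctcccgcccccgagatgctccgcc
Lap3 (chr5:45493124-45493373, plus strand): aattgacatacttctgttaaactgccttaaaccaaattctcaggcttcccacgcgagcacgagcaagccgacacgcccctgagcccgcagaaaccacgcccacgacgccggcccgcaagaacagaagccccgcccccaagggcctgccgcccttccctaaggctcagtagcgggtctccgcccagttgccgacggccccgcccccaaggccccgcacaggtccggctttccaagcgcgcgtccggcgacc
Phkg2 (chr7:127573098-127573347, plus strand): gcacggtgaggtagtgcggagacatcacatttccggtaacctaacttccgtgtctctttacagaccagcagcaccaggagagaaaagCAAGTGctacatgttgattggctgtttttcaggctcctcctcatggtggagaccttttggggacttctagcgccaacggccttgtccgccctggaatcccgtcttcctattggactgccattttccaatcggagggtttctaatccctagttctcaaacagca

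Gpr45, which encodes an orphan receptor, and Olfr606, an olfactory receptor gene, had a PRDM3 summit in the window and no NKX2-1 peak over it. The Gpr45 summit lay 45 bases before the start in a peak of rank 92.5, and the NKX2-1 ranks of this gene come from other sites. The Olfr606 summit lay 5 bases before the start in a weak peak of rank 11.8, and the peak that gave this gene its rank of 82.0 lay 2741 bases from the gene.
Gpr45 (chr1:42952622-42952871, plus strand): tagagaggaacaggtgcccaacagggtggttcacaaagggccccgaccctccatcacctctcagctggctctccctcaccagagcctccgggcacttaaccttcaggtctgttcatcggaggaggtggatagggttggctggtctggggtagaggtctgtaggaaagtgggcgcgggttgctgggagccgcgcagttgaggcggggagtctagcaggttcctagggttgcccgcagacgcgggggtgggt
Olfr606 (chr7:103451089-103451338, plus strand): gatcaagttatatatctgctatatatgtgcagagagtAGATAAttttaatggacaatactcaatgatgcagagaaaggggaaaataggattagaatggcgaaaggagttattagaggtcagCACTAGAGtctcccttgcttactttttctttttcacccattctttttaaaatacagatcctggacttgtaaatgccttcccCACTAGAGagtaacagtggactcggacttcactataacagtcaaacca

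The letters were no more common in bound windows than in all windows, apart from a small excess of AGATAA in windows with PRDM3 alone. Of 16457 promoter windows of 300 bases, one a gene, 15.0% held CACTNNAG, 12.7% CAAGTG, 9.85% AGATAA and 11.2% GATGAG. Among 276 windows with summits of at least 2 NKX2-1 libraries and no PRDM3 peak, 12.3% held CACTNNAG and 10.5% CAAGTG. Among the 113 windows with a PRDM3 summit and no NKX2-1 peak, 11.5% (13 windows) held AGATAA and 6.19% GATGAG. Windows with no peak of either protein held AGATAA more often, at 15.9%. Among 751 windows with summits of at least 2 NKX2-1 libraries and of PRDM3, the shares were 12.8% for CACTNNAG, 8.52% for CAAGTG, 3.86% for AGATAA and 7.99% for GATGAG. Base composition moved with these shares: the median GC content was 63.7% for NKX2-1 alone, 57.3% for PRDM3 alone, 65.0% for both and 48.3% for the 6847 windows with neither. Its part in the letter counts was not tested. Windows on chromosome 18 were not used here.

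Across 19167 genes with a linked peak in any of the 4 libraries, high ranks for both proteins were more common than a high rank for one with a low rank for the other, an order that depended on the peaks used. High was set at a rank of at least 80 and low at under 40 or no linked peak. Fold enrichment at percentile 80 was 6.04, 3.26 and 3.20 in NKX2-1 replicates 1, 2 and 3 and 4.64 in PRDM3. At percentile 40 it was 3.39, 2.44 and 2.40 in NKX2-1 replicates 1, 2 and 3 and 3.27 in PRDM3. In replicates 2 and 3 the percentile 40 value was also the median, and 38.7% and 37.7% of peaks shared it. Peaks at that value ranked 39.1 and 36.2, just under the low threshold. In PRDM3 the commonest value was shared by 12.9% of peaks. The part of these ties in the class sizes was not tested. High and low are therefore places within a list, not equal amounts of enrichment. In replicates 2 and 3 a peak ranked high can fall short of a q-value under 0.05. Both were high at 3567 genes, 18.6% of the genes. NKX2-1, as the mean of 3 libraries, was high and PRDM3 low at 542 genes (2.83%), and PRDM3 was high and NKX2-1 low at 413 genes (2.15%). Of those 413 genes, 208 were also low in NKX2-1 replicate 1, the others being low only through the mean with replicates 2 and 3, and at 274 a replicate 1 peak overlapped the best PRDM3 peak. These classes come from the ranks themselves and carry no test. Without NKX2-1 replicate 1 the single-protein classes held 941 and 675 genes. With only peaks of q under 0.05, of which replicates 2 and 3 have few, the order changed: 530 genes were high for both, 179 for NKX2-1 alone and 1080 for PRDM3 alone. With the 20000 strongest peaks of each library these counts were 913, 374 and 647. Just inside the threshold stood Ttc1, with a mean NKX2-1 rank of 80.03, and Grk2, with a PRDM3 rank of 80.1, and just outside it Fam216a at 79.96 and Snrpa at 79.98. The median difference over all genes, NKX2-1 minus PRDM3, was 5.30 with the mean of 3 libraries and 0 with replicate 1 alone.

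**Figure D1:**
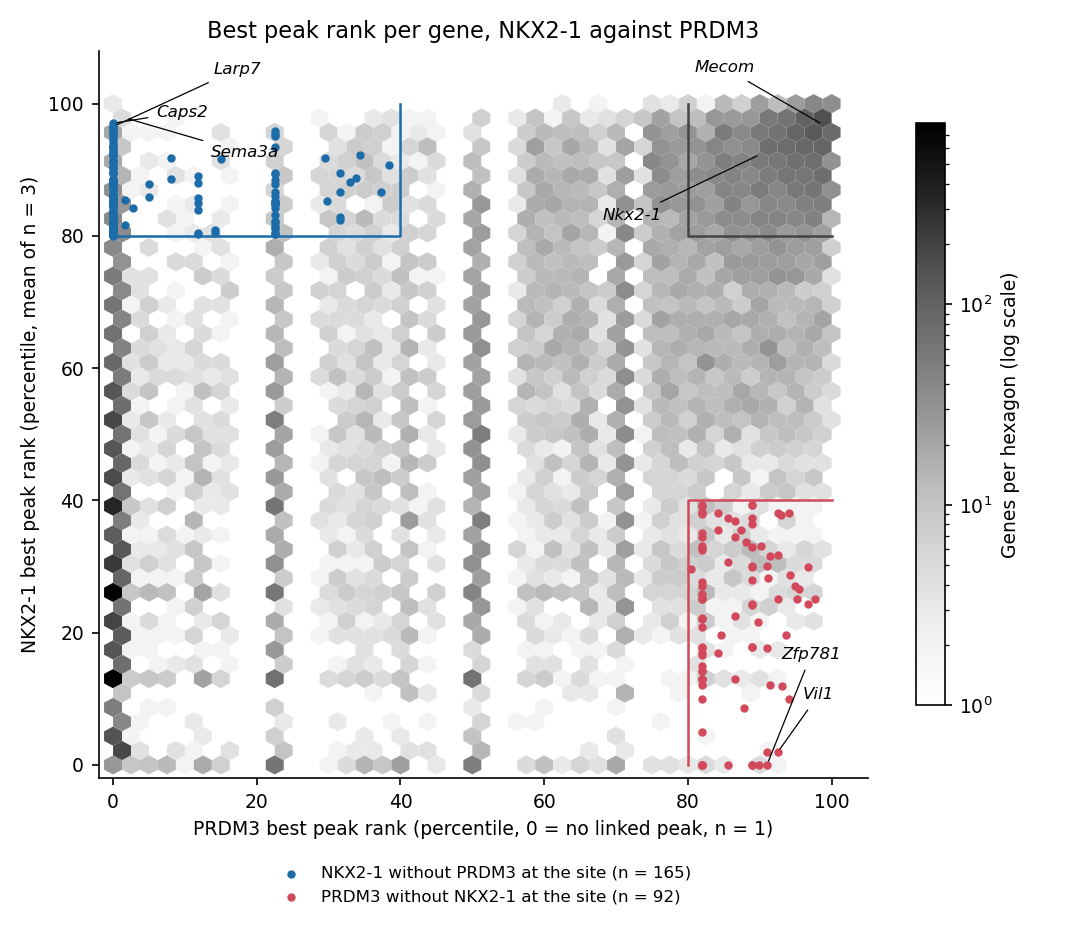
Each hexagon counts genes (log grey scale) by the percentile rank of their best PRDM3 peak (horizontal, n = 1) and the mean rank of their best NKX2-1 peaks (vertical, n = 3), with 0 for no linked peak. Lines bound the 3 classes, and coloured points are the 165 and 92 genes whose best peaks were not overlapped by a peak of the other protein. The upper right box, high for both, holds 3567 genes.

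Between single libraries, no class of NKX2-1 against PRDM3 was larger than the largest class between NKX2-1 replicates. For NKX2-1 replicates 1, 2 and 3, 854, 951 and 1448 genes were high in that library and low in PRDM3, and 340, 1309 and 821 were high in PRDM3 and low in that library. The same rule applied to 2 NKX2-1 libraries gave between 535 and 1608 genes over the 6 ordered pairs. The mean was 1000.5 genes, beside 1084 for NKX2-1 high and PRDM3 low and 823 for the reverse. Replicate 2 was high at more genes low in PRDM3 (951) than low in replicate 1 (535) or replicate 3 (635). For replicate 1, PRDM3 gave the fewest such genes (854 against 1470 and 900). For replicate 3, PRDM3 (1448) lay between replicates 1 (855) and 2 (1608). Against replicate 1, PRDM3 was high at fewer genes (340) than in any comparison of NKX2-1 replicates. Each class is therefore read below beside the values of all 4 libraries.

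The genes at the head of each class first show a property of linking. Psme2, which encodes a proteasome activator subunit, had NKX2-1 ranks of 99.8, 98.9 and 99.0 and no linked PRDM3 peak. Its neighbour Rnf31, a subunit of the linear ubiquitin ligase, had a PRDM3 rank of 95.8 and no linked NKX2-1 peak. Both values come from one shared promoter on chromosome 14: the NKX2-1 summits lay at 55591348, 55591306 and 55591279 and the PRDM3 summit at 55591419, nearer to the Rnf31 end at 55591713 than to the Psme2 end at 55591101. The peaks overlapped. Below is the window of Psme2, which contains the 3 NKX2-1 summits and none of the letters searched for.
Psme2 (chr14:55591102-55591351, minus strand): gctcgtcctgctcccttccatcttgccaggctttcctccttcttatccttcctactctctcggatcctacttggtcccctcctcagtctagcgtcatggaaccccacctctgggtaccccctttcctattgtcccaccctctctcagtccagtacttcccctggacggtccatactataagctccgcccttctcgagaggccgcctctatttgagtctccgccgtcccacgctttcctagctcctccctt

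Tmem87a and Ganc, an alpha-glucosidase gene, share a promoter on chromosome 2 in the same way. Tmem87a had NKX2-1 ranks of 99.0, 92.3 and 98.7 and no linked PRDM3 peak, and Ganc had a PRDM3 rank of 99.5 and no linked NKX2-1 peak, yet all 3 NKX2-1 peaks overlapped that PRDM3 peak. Linking each peak also to every gene end within 5 kb, a choice made after these values were seen, moved 60 genes of the NKX2-1 class and 65 of the PRDM3 class into the class high for both. Of the 10 NKX2-1 genes named by the largest difference, Mepce, Psme2, Polr1d, H2ac24, Pard6a, H2ac23 and Tmem87a were among them, and Caps2, Larp7 and Nt5c3 kept their call. Of the 10 PRDM3 genes, Ganc, Psenen and Rnf31 became high for both, Gstp2 and Cntd1 fell in no class, and Zfp781, Vil1, Plk5, Lrfn1 and Calcb kept their call. Other settings changed some of these. With q under 0.05, PRDM3 ranks were 78.9, 76.4, 78.9 and 74.0 at Zfp781, Plk5, Lrfn1 and Calcb, and 82.4 at Vil1. The first 4 also lost their call with the 20000 strongest peaks. With a 10 kb link Vil1 (50.7) and Lrfn1 (58.2) lost it. Caps2 lost its call with q under 0.05 (79.0), and Larp7 and Nt5c3 did not. With peaks outside H3K4me3 Caps2 (42.7), Larp7 (27.8) and Nt5c3 (15.7) lost it, as did Zfp781 (27.0), while Vil1, Plk5, Lrfn1 and Calcb kept it. With thresholds of 90 and 50 Plk5 and Calcb lost it. Linking to every gene end within 5 kb gave an NKX2-1 class of 606 genes (3.1%) and a PRDM3 class of 309 (1.58%). The class high for both then held 4661 (23.9%). Under both this link and the nearest-end link 419 genes (2.19%) stayed in the NKX2-1 class and 256 (1.34%) in the PRDM3 class.

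**Figure D2:**
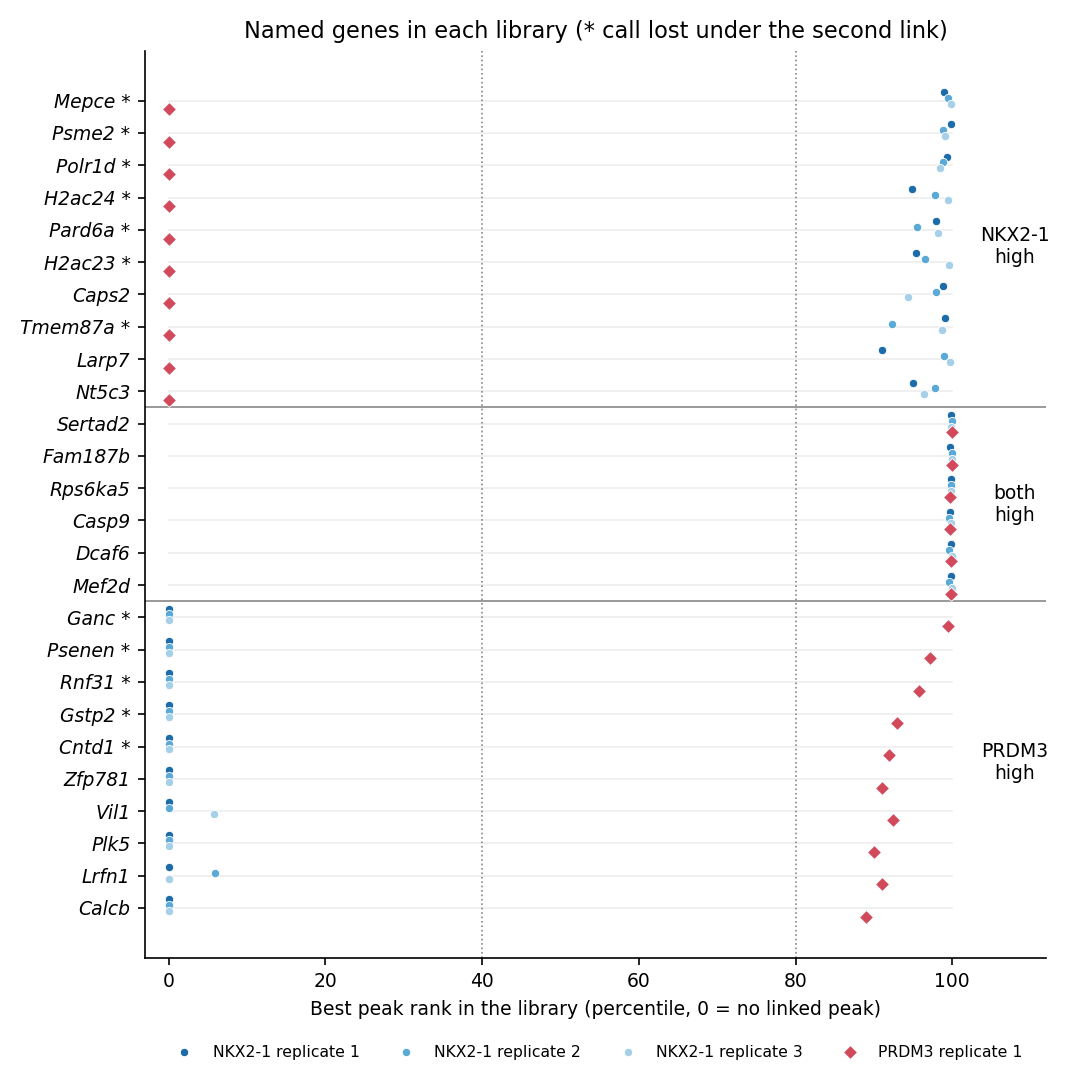
Percentile rank of the best linked peak (horizontal, 0 for no linked peak) of the 26 genes named by rank in each of the 4 libraries; circles are the 3 NKX2-1 libraries, diamonds the PRDM3 library, and dotted lines mark 40 and 80. An asterisk marks genes that left their class when peaks were linked to every gene end within 5 kb; 7 of the 10 NKX2-1 genes and 5 of the 10 PRDM3 genes carry one.

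A stricter reading of the site asked that the call held under both links and that no peak of the other protein overlapped the best peaks. It left 165 genes (0.861%) with NKX2-1 and without PRDM3. For 111 of them PRDM3 had no linked peak at all. At Larp7 the NKX2-1 ranks were 91.0, 98.9 and 99.7, with fold enrichments of 8.12, 6.25 and 8.41, and all 3 summits lay within 238 bases of the gene end. Caps2, a calcyphosine gene, had ranks of 98.8, 97.9 and 94.4, with summits 138, 116 and 148 bases from the gene end. Nt5c3, a cytosolic nucleotidase gene, had ranks of 95.0, 97.7 and 96.4. All 3 NKX2-1 libraries were high at each of these genes, and PRDM3 was absent from them.

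Other members with a rank of at least 80 in every NKX2-1 library and no linked PRDM3 peak, named after their values were seen, have varied roles. Ash2l, a core subunit of the complexes that write H3K4 methylation, had ranks of 95.0, 98.3 and 94.3, at a site inside the gene more than 6 kb from its nearer end. Knl1, a kinetochore scaffold, had 92.3, 95.5 and 97.6. Map1lc3a, an autophagy protein, had 92.1, 96.6 and 97.6. Each lay above the threshold in all 3 libraries. Epha1, an ephrin receptor, had 94.9, 96.6 and 95.4, and Cpne3, a copine, 99.9, 89.6 and 97.0.

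The reverse set held 92 genes (0.48%) with PRDM3 and without NKX2-1 at the site. Zfp781, a zinc finger gene, had a PRDM3 peak of rank 91.0 (fold enrichment 5.83) 135 bases from its end and no linked NKX2-1 peak in any library. Vil1, which encodes the microvillus protein villin, had a PRDM3 rank of 92.5 against NKX2-1 ranks of 0, 0 and 5.73, at a site 17740 bases from the gene. Fam83a had a PRDM3 rank of 97.6 against 0, 0 and 75.1. PRDM3 was thus high in its one library while at most 1 NKX2-1 library had a linked peak. At Zfp781 the call rests on PRDM3 alone, and PRDM16 replicate 2 had a peak of rank 84.5 there while replicate 1 had none.

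Calcb, a calcitonin gene-related peptide gene, Plk5, a polo-like kinase gene, and Zbtb4, a zinc finger gene, had PRDM3 ranks of 88.9, 89.96 and 85.6 and no linked NKX2-1 peak. Lrfn1, a synaptic adhesion gene, had a PRDM3 rank of 91.0 against 0, 5.88 and 0. PRDM3 was high at each of these 4 genes, and NKX2-1 had at most 1 weak peak. Olfr606, Taar7f and Vmn1r85, chemosensory receptor genes, shared a PRDM3 rank of 82.0, the rank of a single tied fold enrichment of 4.75. Nothing replicates these PRDM3 peaks in a second PRDM3 library.

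The 2 strict sets differed in where their best peaks lay. In the NKX2-1 set, 70.9%, 61.2% and 64.2% of the best NKX2-1 peaks (replicates 1 to 3) had summits within 1 kb of a gene end, and 82.4%, 71.5% and 75.8% lay over H3K4me3. In the PRDM3 set, 18.5% of best PRDM3 peaks lay within 1 kb of a gene end and 18.5% over H3K4me3. H3K4me3 stood at an end of 143 of the 165 genes (86.7%) and of 36 of the 92 genes (39.1%), beside 64.7% of all genes. The strict reading removed most PRDM3 genes with a promoter peak, since over the whole classes H3K4me3 stood at an end of 91.0% of the 542 NKX2-1 genes and of 69.2% of the 413 PRDM3 genes, the latter above all genes. Of the best PRDM3 peaks of those 413 genes, 53.0% lay within 1 kb of a gene end and 59.8% over H3K4me3. NKX2-1 genes had to be high in the mean of 3 libraries and PRDM3 genes in 1, so the sets were not chosen alike. In single libraries the gap was smaller: best peaks within 1 kb made up 77.4%, 61.7% and 61.6% of genes high in NKX2-1 and low in PRDM3, and 51.8%, 54.1% and 50.4% of the reverse. Between NKX2-1 replicates the same share ran from 48.0% to 66.1%. Best peaks over H3K4me3 made up 88.5%, 67.7% and 67.2% of genes high in NKX2-1 and 56.5%, 66.8% and 61.6% of the reverse, nearly equal for replicate 2. Between NKX2-1 replicates the share over H3K4me3 ran from 46.9% to 80.8%, so only the 88.5% of replicate 1 lay outside that range.

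PRDM16 ranks, which the rule did not use, were highest at genes high for both. In the strict sets the median rank was 82.4 in PRDM16 replicate 1 and 75.6 in replicate 2 for the NKX2-1 set, and 74.6 and 63.3 for the PRDM3 set, beside 83.6 and 68.8 over all genes. In the whole classes the order against all genes was different: the medians were 86.4 and 76.7 for the 542 NKX2-1 genes and 85.6 and 72.7 for the 413 PRDM3 genes, and 86.3 and 75.1 for the 256 PRDM3 genes held under both links. At the 3567 genes high for both proteins it was 96.3 and 92.6. Genes high for both had a median of 4 linked peaks in NKX2-1 replicate 1 and in PRDM3, beside 1 over all genes, and a gene with more peaks has more chances of a high best rank.

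At some genes the proteins met at one site with unequal strength. At a site 25511 to 25585 bases beyond the Sema3a gene, which encodes a secreted guidance protein on the AT1 list, the NKX2-1 ranks were 99.6, 95.0 and 99.0, with fold enrichments of 17.9, 4.37 and 6.80. The PRDM3 peak there had a rank of 1.64 and a fold enrichment of 2.32, and its summit at 13629060 on chromosome 5 lay within the NKX2-1 peaks, beside summits at 13629070, 13628996 and 13629026. Its −log10 q was 0.29. All 3 NKX2-1 values were above the PRDM3 value, and the region carried H3K4me3. The reverse held near Scgb1a1, the club cell secretoglobin, where PRDM3 had a rank of 87.1 and NKX2-1 22.2, 0 and 36.2, with the PRDM3 peak overlapping both NKX2-1 peaks.

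The genes of the factors themselves were high for both proteins, though not always through best peaks at one site. Nkx2-1 had NKX2-1 ranks of 83.0, 96.6 and 97.6 and a PRDM3 rank of 90.1. Mecom, which encodes PRDM3, had NKX2-1 ranks of 98.4, 95.0 and 96.9 and a PRDM3 rank of 98.9. Prdm16 had NKX2-1 ranks of 86.5, 77.4 and 84.9 and a PRDM3 rank of 98.2. PRDM3 was above all 3 NKX2-1 libraries at Mecom and Prdm16 and within their range at Nkx2-1. At Prdm16 the best NKX2-1 summits lay 44007, 42452 and 1197 bases from a gene end and the PRDM3 summit 427. At Nkx2-1 they lay 4041, 10730 and 10504 bases from an end and the PRDM3 summit 1113. The best PRDM3 peak of Nkx2-1, Mecom and Prdm16 overlapped a peak of each NKX2-1 library. At Prdm16 those peaks ranked 77.1, 59.6 and 84.9. The 6 genes with the highest lowest rank over the 4 libraries were Sertad2, Fam187b, Rps6ka5, a kinase gene, Casp9, the initiator caspase, Dcaf6 and Mef2d, a MADS box factor.

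Gene lists of lung cell types and pathways are described by their counts and medians, with no test. Over all genes 18.6% were high for both, and PRDM3 lay above all 3 NKX2-1 libraries at 17.8% and below all 3 at 23.4%. Of 28 lung epithelial transcription factors, 21 were high for both and none was high for one and low for the other. Foxa2 had NKX2-1 ranks of 98.5, 96.6 and 90.4 and a PRDM3 rank of 94.3, and Sox9, a factor of distal tip progenitors, 63.6, 96.6 and 95.4 and a PRDM3 rank of 91.7. Elf3 (85.6, 0 and 59.4 against 87.7) and Etv4 (75.6, 18.3 and 64.8 against 91.0) had PRDM3 above all 3 NKX2-1 libraries. The median difference of the list was -0.78, and -1.90 with replicate 1 alone.

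Of 24 AT1 genes, 16 were high for both, and PRDM3 lay above all 3 NKX2-1 libraries at 11 and below them at 5. Hopx, an atypical homeodomain protein, had NKX2-1 ranks of 93.2, 95.7 and 95.4 and a PRDM3 rank of 99.2. Pdpn, the membrane protein podoplanin, had 79.9, 77.4 and 36.2 against 97.3, and Aqp5, a water channel, 90.4, 39.1 and 36.2 against 93.4. At Aqp5 replicate 1 was close to PRDM3 and its peak overlapped the PRDM3 peak, and replicates 2 and 3 were low. Ager, the advanced glycation end product receptor, had 26.3, 96.6 and 90.4 against 61.1, so the NKX2-1 libraries lay on both sides of PRDM3. Sema3a was the one AT1 gene in the NKX2-1 class.

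Of 23 AT2 genes on these chromosomes, 10 were high for both and Sfta2 and Sftpc were in the PRDM3 class. Sftpc, the surfactant protein C gene, had NKX2-1 ranks of 18.2, 0 and 90.4 and a PRDM3 rank of 86.1, so replicate 3 was above PRDM3. Sfta2 had 86.9, 0 and 15.7 against 84.2, and here replicate 1 was above it. The best replicate 1 peak of Sfta2 overlapped the PRDM3 peak. With peaks linked to every end within 5 kb its mean NKX2-1 rank was 67.0, and it fell in no class. Sftpb, the surfactant protein B gene, was high for both, at 97.2, 96.6 and 75.1 against 98.6, as was Lpcat1, an enzyme of surfactant lipid synthesis, at 85.6, 97.8 and 97.6 against 99.97. Sftpd had 81.8, 0 and 75.1 against 99.4. The median difference of the AT2 list was -9.01 with the mean of 3 libraries and -1.12 with replicate 1 alone.

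Among signalling pathways, 17 of 23 TGF-beta and BMP genes were high for both, among them the receptor gene Bmpr2 (90.3, 89.3 and 86.7 against 99.7), the transducer Smad2 (99.1, 99.1 and 97.6 against 86.1) and the target Id1 (93.6, 77.4 and 93.5 against 99.2). The Notch list had 9 of 19 genes high for both and 2 in the NKX2-1 class, the target genes Hes5 and Hey1. Hes5 had NKX2-1 ranks of 75.6, 92.3 and 75.1 and no linked PRDM3 peak. Hey1 had 83.5, 96.6 and 97.6 against 35.1. Notch1, a receptor, and Hes1, another target, were high for both, with PRDM3 ranks of 89.7 and 99.6. PRDM3 lay below all 3 NKX2-1 libraries at 9 of the 19 Notch genes and above them at 4. Of the Wnt list 13 of 25 were high for both, and of the Hippo list 9 of 20, with no gene of either in a single-protein class.

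**Figure D3:**
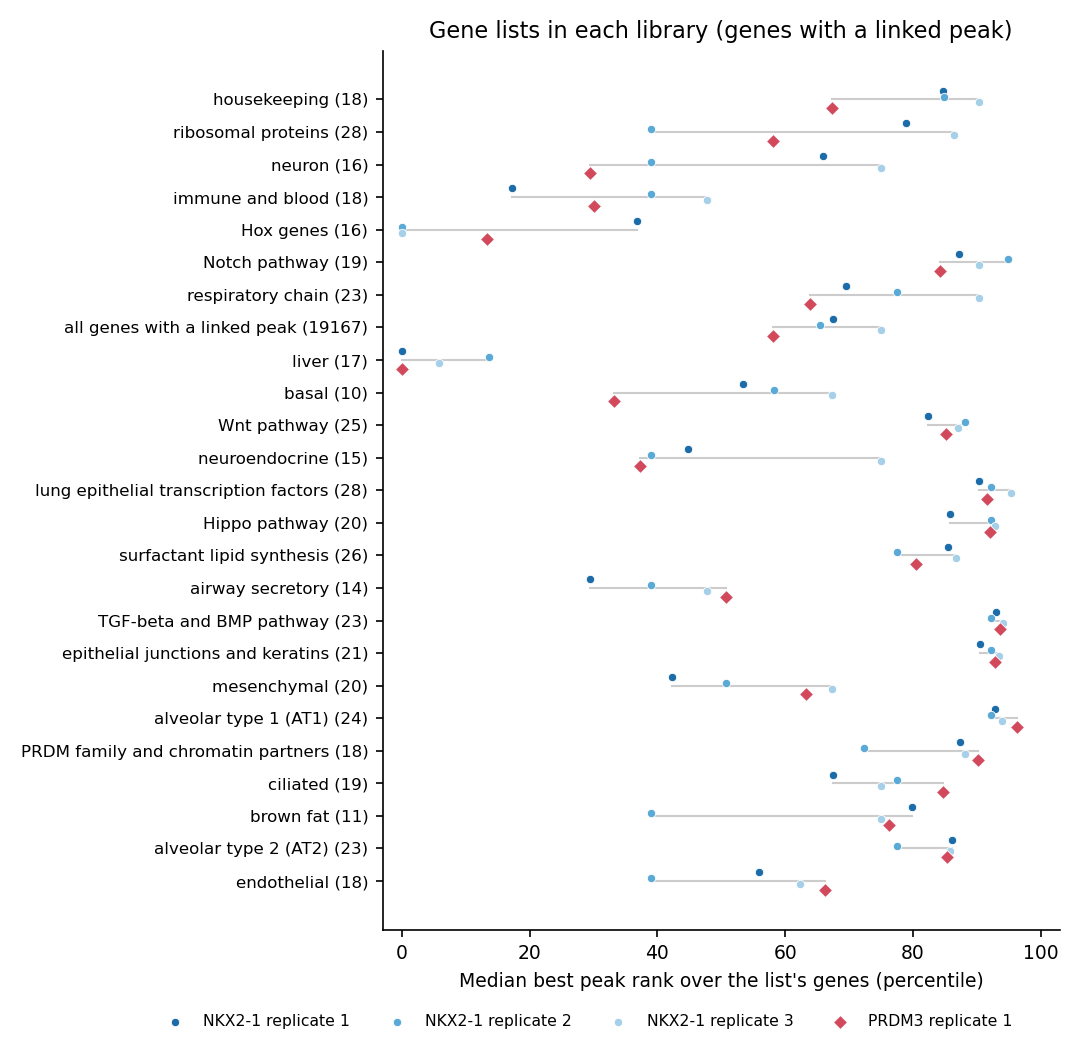
Median percentile rank of the best linked peak over the genes of each list (horizontal; number of genes with a linked peak in brackets) in each of the 4 libraries, ordered by the difference of NKX2-1 and PRDM3; circles are NKX2-1 libraries and diamonds PRDM3. PRDM3 lies left of all NKX2-1 libraries for housekeeping genes (67.4 against 84.8, 84.9 and 90.4) and right of them for AT1 genes (96.2 against 92.8, 92.3 and 94.0), and NKX2-1 replicate 2 lies at 39.1 for several lists.

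With the mean of 3 libraries and the nearest-end link, the lists with the largest median differences were those of housekeeping genes (15.2) and ribosomal protein genes (14.7), and with replicate 1 alone these were 6.27 and 5.60. With peaks linked to every end within 5 kb they were 13.1 and 14.3, and the immune and blood list was larger at 21.2 (10.6 with the nearest end, 0 with replicate 1 alone). PRDM3 lay below all 3 NKX2-1 libraries at 8 of 18 housekeeping and 10 of 28 ribosomal protein genes, and above them at 2 and 3. Ppia, cyclophilin A, had NKX2-1 ranks of 89.3, 97.5 and 93.5 against 31.6. In the respiratory chain list, Atp5a1, a subunit of ATP synthase, had 95.1, 92.3 and 95.4 against 33.8. Both Ppia and Atp5a1 were in the NKX2-1 class.

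The endothelial list had the lowest median difference, -11.2, and -13.0 with replicate 1 alone. PRDM3 lay above all 3 NKX2-1 libraries at 7 of its 18 genes and below them at 2. Tek, the angiopoietin receptor, had NKX2-1 ranks of 78.4, 39.1 and 36.2 against 94.9, and Fli1, an ETS factor, 56.0, 39.1 and 75.1 against 94.9. Eng, a TGF-beta co-receptor, had a PRDM3 rank of 68.3 and no linked NKX2-1 peak. Cldn5 stood the other way, at 14.5, 92.3 and 90.4 against 4.96. H3K4me3 stood at an end of 12 of the 18 genes, beside 64.7% of all genes. Whether non-epithelial cells in the selection contributed was not tested.

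The list of PRDM family genes and their chromatin partners had 9 of 18 members high for both and none in a single-protein class. PRDM3 lay above all 3 NKX2-1 libraries at 8 and below them at 5, with a median difference of -3.85, and of -0.96 with replicate 1 alone. Kdm1a, the H3K4 demethylase LSD1, had NKX2-1 ranks of 48.1, 39.1 and 59.4 against a PRDM3 rank of 90.4. Ctbp2, a corepressor known to bind PRDM3, had 0, 92.3 and 90.4 against 97.0, and Ehmt2, the H3K9 methyltransferase G9a, 91.5, 0 and 36.2 against 94.0. Hdac2, a histone deacetylase, stood the other way at 94.2, 98.8 and 99.5 against 84.2, and so did Prdm2 at 87.1, 89.8 and 95.4 against 82.0.

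The other lists held few genes in a single-protein class. Surfactant lipid synthesis had 9 of 26 genes high for both and Cept1, a phospholipid synthesis enzyme, in the NKX2-1 class (78.8, 92.3 and 90.4 against 30.3). Junction and keratin genes had 12 of 21 high for both, with Cldn7 at 95.7, 96.6 and 96.9 against 66.2 and Krt8 at 94.5, 87.2 and 36.2 against 98.3. Of the airway secretory list 1 of 14 was high for both, of the ciliated list 5 of 19, of the neuroendocrine list 3 of 15 and of the basal list 2 of 10. Foxj1, the master factor of cilia, had 70.9, 0 and 95.4 against 95.8.

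Of lists from outside the lung epithelium, set beside the 18.6% of all genes, 2 of 20 mesenchymal, 2 of 18 immune and blood, 3 of 16 neuron, 4 of 11 brown fat, 0 of 17 liver and 0 of 16 Hox genes were high for both, as were 4 of 23 respiratory chain genes. Liver had Cps1, a urea cycle enzyme, in the NKX2-1 class (75.6, 77.4 and 90.4 with no linked PRDM3 peak) and Pck1, a gluconeogenesis enzyme, in the PRDM3 class (69.3, 0 and 5.73 against 87.9). Brown fat genes, which PRDM16 is known to control, had PRDM3 above all 3 NKX2-1 libraries at 5 of 11 and below them at 0. The neuron list had a median difference of 13.8, and of 9.81 with replicate 1 alone. With peaks linked to every end within 5 kb its median difference was 2.70. Hox genes had a median difference of 6.89 with the mean of 3 libraries and 24.6 with replicate 1 alone.

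Overlap between the proteins was far more common among strong than among weak peaks. Of the weakest 10% of peaks of NKX2-1 replicates 1, 2 and 3, 15.5%, 6.85% and 4.94% overlapped a PRDM3 peak by at least 1 base, and of the strongest 10%, 93.7%, 66.1% and 67.5% did. Of PRDM3 peaks, 32.6%, 13.9% and 16.5% of the weakest 10% and 93.8%, 57.6% and 64.2% of the strongest 10% overlapped a peak of NKX2-1 replicates 1, 2 and 3. Outside H3K4me3 the strongest 10% gave 85.7%, 28.3% and 27.7% for NKX2-1 peaks and 86.6%, 34.4% and 39.9% for PRDM3 peaks. Strong peaks were also wider, with a median of 1392 bases in the strongest 10% of NKX2-1 replicate 1 and 325 in the weakest, and 853 and 300 in PRDM3, and the part of width was not tested. Replicate 1 shared far more of its sites with PRDM3 than the other replicates did. Over all peaks, 41.5% of replicate 1 overlapped PRDM3, beside 23.9% and 28.1% that overlapped replicates 2 and 3. Of replicate 2 peaks, 17.9% overlapped PRDM3, and 22.7% and 16.1% replicates 1 and 3. Of replicate 3 peaks, 16.7% overlapped PRDM3, and 21.4% and 12.5% replicates 1 and 2. For each library, overlap with PRDM3 was thus within or above the range of overlap with the other NKX2-1 libraries.

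**Figure D4:**
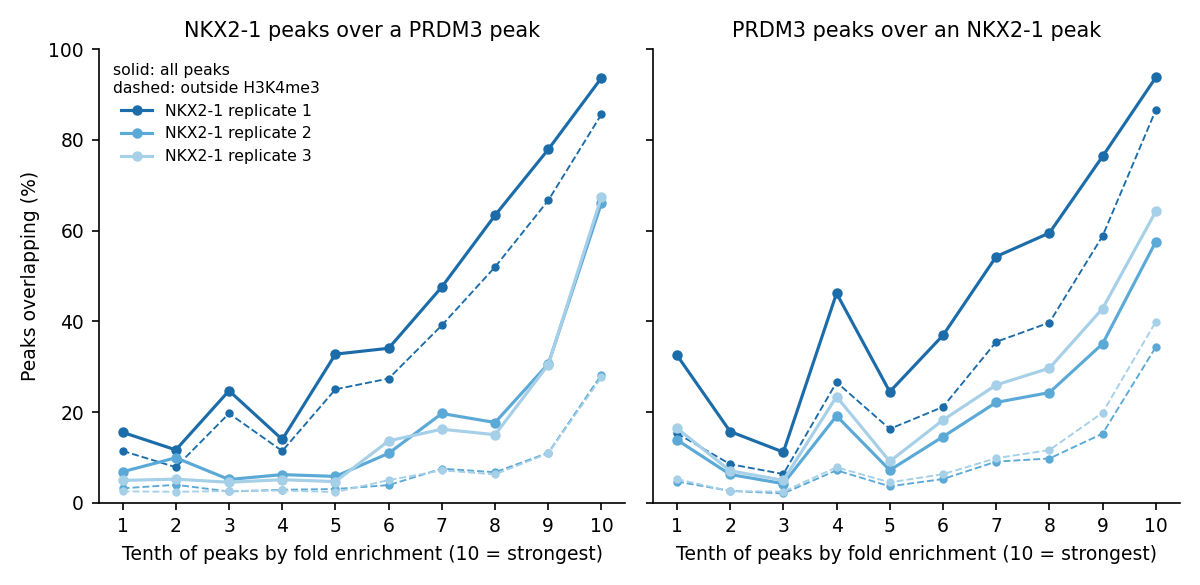
Share of peaks (vertical, percent) in each of 10 equal bins of a library by fold enrichment (horizontal, 10 strongest) that overlap a peak of the other protein, for NKX2-1 peaks over PRDM3 (left) and PRDM3 peaks over NKX2-1 (right); solid lines are all peaks, dashed lines peaks outside H3K4me3, and colours the NKX2-1 library. In the strongest bin, 93.7% of NKX2-1 replicate 1 peaks and 66.1% and 67.5% of replicates 2 and 3 overlap PRDM3; the share does not rise at every step among the weaker bins.

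In whole-library measures PRDM3 lay within the range of the NKX2-1 libraries. Summits within 1 kb of a gene end made up 23.2%, 14.4% and 13.7% of NKX2-1 peaks (17.1% ± 5.29, SD, n = 3) and 20.4% of PRDM3 peaks. Peaks over H3K4me3 made up 35.4%, 18.97% and 18.3% (24.2% ± 9.66, SD, n = 3) against 31.5%. Peaks overlapping PRDM16 replicate 1 made up 64.1%, 24.7% and 23.4% (37.4% ± 23.1, SD, n = 3) against 53.1%. In each case PRDM3 lay between NKX2-1 replicate 1 and replicates 2 and 3. The exact permutation test over the 4 labelings, two-sided, gave p = 1 for each of 5 such measures, but with 1 PRDM3 library the smallest p it can give is 0.25, so it could not have found a difference.

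Where peaks of the 2 proteins overlapped, the median summit distances lay within the range between NKX2-1 replicates. The median distance from NKX2-1 to PRDM3 summits was 187, 184 and 190 bases for replicates 1, 2 and 3, over 23707, 11167 and 13337 pairs of peaks. Between NKX2-1 replicates it was 213 bases (replicates 1 and 2), 217 (1 and 3) and 184 (2 and 3). The means were 187 ± 3 bases (SD, n = 3 pairs) and 205 ± 18.01 bases (SD, n = 3 pairs), a difference of -17.7 bases with an exact permutation p of 0.5 (two-sided; the smallest possible is 0.25, so the test could not have found a difference). Pairs share libraries and are not independent. Without replicate 1 the difference was 3 bases, so its sign rests on that library.

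Summits within 50 bases of each other made up 18.7% of pairs with PRDM3 and 17.4% of pairs of NKX2-1 libraries (exact permutation p = 0.25, the smallest possible). Outside H3K4me3 the mean medians were 155 and 163 bases (exact permutation p = 0.75). Among pairs in which both peaks ranked at least 90, the median distance to PRDM3 was 82.0 bases for NKX2-1 replicate 1, 126 for replicate 2 and 148 for replicate 3, and 153, 153 and 161 between NKX2-1 replicates. Replicate 1 and PRDM3, which share a series of peak names, were the closest pair.

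**Figure D5:**
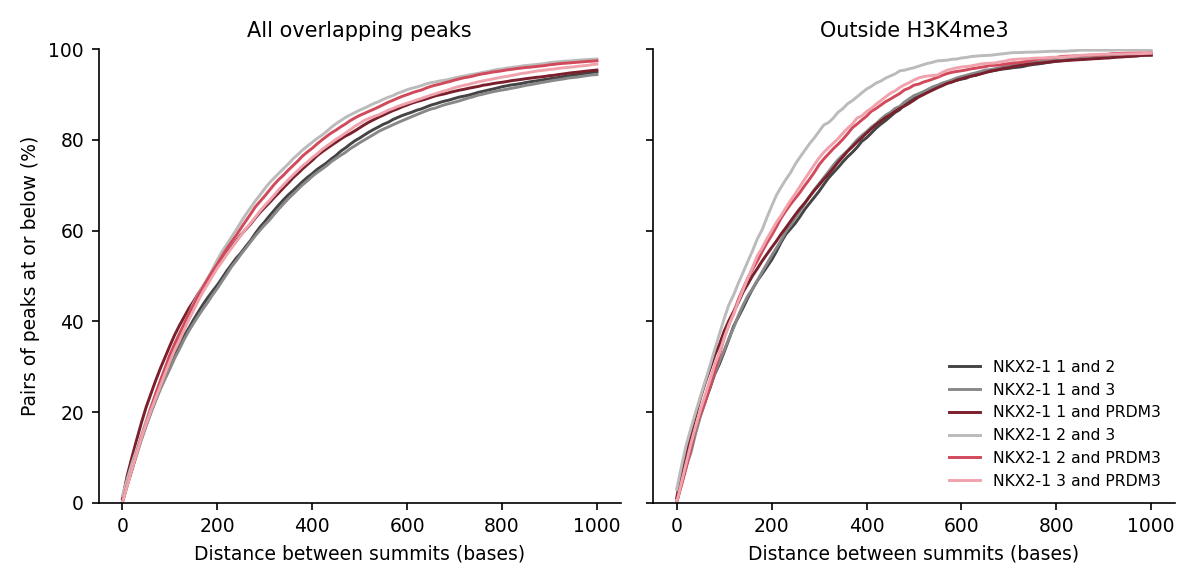
Cumulative share (vertical, percent) of overlapping pairs of peaks by the distance between their summits (horizontal, bases), for the 3 pairs of an NKX2-1 library with PRDM3 (red) and the 3 pairs of NKX2-1 libraries (grey), over all peaks (left) and outside H3K4me3 (right). The curves overlap: on the left the medians with PRDM3 are 184 to 190 bases and those of NKX2-1 pairs 184 to 217, and the curve of replicate 1 with PRDM3 starts highest, at 21.1% within 50 bases.

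Near annotated starts, summits of both proteins lay mostly just downstream. Over summits within 1 kb of a start, the median position was 83, 68 and 104 bases after the start in NKX2-1 replicates 1, 2 and 3 and 53 bases after it in PRDM3. In overlapping pairs there, the PRDM3 summit had a median shift of 0, -17 and -27 bases against replicates 1, 2 and 3, where a negative value is towards the upstream side. Between NKX2-1 replicates the median shift was 13, 38.5 and 7 bases. The shifts with PRDM3 were thus of the size seen between replicates of one protein.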

How the data were processed

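Peaks were deposited by the authors as 1 list per sample. The submitters' processing notes name Trimmomatic, Bowtie2, MACS2, HOMER and mm10, with no versions. The 3 IgG samples were not analysed here. The deposited fold enrichment (column 7) is a ratio to background, used only for ranks within a list and to describe single peaks. The deposited −log10 q is the authors' and served as a filter and an alternative ranking; the deposited −log10 p and score were not used. Read depth is unknown.

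Percentile ranks average ties. For 20665 protein-coding genes in the RefSeq table (GRCm38.p6, the same assembly as mm10) both ends were used, because the table gives no strand. Promoter sequences were matched by gene ID. Members and 24 gene lists were chosen with earlier results of these data known. Named are Nkx2-1, Mecom and Prdm16, the 10 largest differences in each class (for NKX2-1 with a peak in all 3 libraries), the 6 highest lowest ranks, and the extremes of each list. Predicted genes were left out, and some of the named genes are not reported here. Other genes, the printed promoters, the link to every end within 5 kb, the strict sets, the motif shares, the bins by strength, the offsets from starts and the comparison of single libraries were chosen after values were seen. Alternatives changed the peaks used, link, thresholds and libraries. The scripts were tested on simulated data. Python 3.11.15, numpy 2.4.6, pandas 2.3.3 and matplotlib 3.10.9 were used.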

Additional observations from a re-analysis of the deposited data

How the results depend on the processing

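Of 60 alternative values of 5 results, 38 kept their direction and side of the threshold or stayed near the reported count, 18 moved and 4 reversed. The NKX2-1 class (542 genes) held 179 genes with peaks of q under 0.05, 230 with thresholds of 90 and 50, 1073 with the NKX2-1 mean over libraries with a peak, 254 with peaks outside H3K4me3, 854 with replicate 1 alone and 165 with the strict reading. Leaving out one NKX2-1 library gave 571 to 941, the latter without replicate 1. The PRDM3 class (413 genes) held 1080 genes with q under 0.05, 647 with the 20000 strongest peaks of each library, 1041 with all annotated genes, 251 with 90 and 50, 155 with the mean over libraries with a peak and 92 with the strict reading. Leaving out one NKX2-1 library gave 368 to 675, the latter without replicate 1. The class high for both (3567 genes) held 530 with q under 0.05, 913 with the 20000 strongest peaks, 1061 outside H3K4me3 and 1519 with 90 and 50. Members changed too: of the 374 NKX2-1 genes found with the 20000 strongest peaks, 106 were shared with the 542. The cause was not tested. The summit difference ran from -28.5 to 3 bases over left-out libraries, reversed without replicate 1. The share of peaks near gene ends, NKX2-1 minus PRDM3 (-3.35 percentage points), reversed to 9.99 with q under 0.05, 2.16 with the 20000 strongest peaks and 2.75 with replicate 1 alone, and ran from -6.40 to -1.65 over left-out libraries.

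No paired analysis was possible because PRDM3 has only replicate 1, so the groups share a single number. Replicate 1 alone gives no summit difference, since it leaves no pair of NKX2-1 libraries. PRDM3 has no second library, and no result tells its binding from the spread of 1 library.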
